A study of Mus musculus with 12 samples.

Results

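C-type lectin receptor genes were followed through the open chromatin of graft-derived and host brain macrophages. The set held 10 mouse genes, Clec4a1, Clec4a2, Clec4a3, Clec4b1, Clec4d, Clec4e, Clec4n, Clec5a, Clec12a and Cd209a, and every peak that the authors had annotated to one of them was taken. In the table of untreated mice this gave 23 of 60288 peaks, and in the table of mice given lipopolysaccharide (LPS) 29 of 54953 peaks. Of the 10 genes, 9 had at least 1 peak in each table. Clec4b1, which encodes a receptor of dendritic cells, had none, and no peak of either table lay within its gene body or in the 10 kb on either side of it.

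Open chromatin was measured by ATAC-seq, in which a transposase cuts accessible DNA, in macrophages sorted from the brains of bone marrow chimeras. Wild-type C57BL/6J mice had been irradiated with 950 cGy and given wild-type marrow carrying the CD45.1 allele of the leukocyte antigen CD45, so CD45.1 marks graft-derived cells and CD45.2 the host microglia. Each population was sorted from brains of untreated mice (replicates 4, 5 and 6) and of mice killed 12 h after 2.5 mg/kg LPS, a bacterial endotoxin (replicates 1, 2 and 3), which gives 4 groups of 3 libraries. The labels do not say which mouse each library came from. The labels give 3.5 or 9 months between transfer and analysis without saying which applied to which mouse, and the study describes these profiles at the later time. All 4 groups are irradiated chimeras, so no group shows microglia of an intact brain. The sort kept Ly6C/G-negative, CD11b-positive cells with low CD45, a gate that removes neutrophils and Ly6C-high monocytes. In sorted bulk cells, a larger share of cells with an open site and a wider opening in each cell cannot be told apart.

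C-type lectin receptors are surface proteins of myeloid cells that bind sugars, lipids or products of dying cells. Some of them (Clec4e or Mincle, Clec4d or MCL, Clec4n or Dectin-2, and Clec5a) signal through adaptors with activating tyrosine motifs and the kinase Syk. Others (Clec4a2 or DCIR, and Clec12a or MICL) carry an inhibitory motif and restrain activation. Most of the genes lie close together on chromosome 6, and Cd209a, the mouse relative of the dendritic cell receptor DC-SIGN, lies on chromosome 8.

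The untreated libraries held 8392877.5 to 9107770.0 tags in total and the LPS libraries 2966364.0 to 6556594.5, so LPS peaks carry more counting error (median 8 to 23.5 tags per peak and library, against 16 to 35). One library stood apart: CD45.2 of untreated replicate 4 had 9.30% of its tags in its own peaks, where replicates 5 and 6 had 27.24% and 25.99%. Leaving this library out ended no call of a member peak or gene in untreated mice. All 10 microglia markers looked for had peaks in both tables. Tags summed over the peaks of Sall1, a transcription factor gene of microglia, were 988.1, 1115 and 1022 normalized tags in CD45.2 of untreated replicates 4, 5 and 6. In CD45.1 they were 123.7, 187.1 and 23.2, which is 11.9%, 18% and 2.2% of the CD45.2 mean. After LPS, CD45.1 had 8.30% to 16.5% of the CD45.2 mean of the LPS libraries. Of 4 neuronal markers, 3 were higher in CD45.2 of untreated mice and 2 after LPS. Of 8 neutrophil markers, 4 had a peak in untreated mice (S100a8, Ly6g, Cxcr2 and Camp had none), with sums of 109 to 130 normalized tags in CD45.1 and 61.3 to 85.9 in CD45.2. Retnlg (log2 fold change 4.34, DESeq2 adjusted p 2.85e-15) and Mmp8 (1.77, adjusted p 0.0263) were higher in CD45.1 and S100a9 (−1.16, adjusted p 0.0388) in CD45.2. After LPS 7 had a peak, with sums of 92.5 to 139.2 and 72.2 to 128.0, and Mmp8 was higher in CD45.1 (1.45, adjusted p 0.00106). Of 6 Ly6C-high monocyte markers, 4 had a peak in untreated mice (462 to 618 against 333 to 437), with F13a1 higher in CD45.1 (1.31, adjusted p 2.48e-07), and after LPS all 6 had one and none differed past the limit. Of 5 B cell markers, 2 had a peak in each treatment (138.7 to 162.6 against 70.8 to 92.3 in untreated mice), and Ms4a1 was higher in CD45.1 in both treatments (1.73 and 1.22). Of 6 dendritic cell markers, 5 had a peak, with Flt3 higher in CD45.1 of untreated mice (0.54, DESeq2 adjusted p 0.0169). Of 7 T and NK cell markers, 4 had a peak, with Cd3d and Ncr1 higher in CD45.1 and Lck in CD45.2 of untreated mice. No marker of these last 2 lists differed past the limit after LPS. The part of such other cells in the results was not tested.

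Normalized tags are the deposited tags divided by a size factor per library. A peak was called where the adjusted p of DESeq2 was under 0.01 and the difference was over 4-fold, and log2 fold changes are those of CD45.1 over CD45.2. The stretches below, from mm9 on the plus strand, are shown because each is centred on the peak with the smallest adjusted p of its gene, for the 6 genes with the smallest values. Capitals mark matches, on either strand, to short motifs of transcription factors active in myeloid cells. The Clec4e stretch is cut at the first exon.
Clec12a promoter, chr6:129300030-129300229: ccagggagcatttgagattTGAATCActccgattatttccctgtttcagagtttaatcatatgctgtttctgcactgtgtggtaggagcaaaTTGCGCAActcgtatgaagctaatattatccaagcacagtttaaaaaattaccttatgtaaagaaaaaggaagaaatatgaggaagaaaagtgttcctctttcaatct
Clec4d upstream, chr6:123202911-123203110: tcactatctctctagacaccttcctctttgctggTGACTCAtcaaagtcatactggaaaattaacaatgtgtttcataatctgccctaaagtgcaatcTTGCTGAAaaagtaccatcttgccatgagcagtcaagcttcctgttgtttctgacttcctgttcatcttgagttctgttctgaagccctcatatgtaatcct
Clec4e promoter, chr6:123239890-123240042: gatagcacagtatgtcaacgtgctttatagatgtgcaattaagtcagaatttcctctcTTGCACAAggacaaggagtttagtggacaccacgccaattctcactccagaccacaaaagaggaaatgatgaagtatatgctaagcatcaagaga
Clec4n upstream, chr6:123177629-123177828: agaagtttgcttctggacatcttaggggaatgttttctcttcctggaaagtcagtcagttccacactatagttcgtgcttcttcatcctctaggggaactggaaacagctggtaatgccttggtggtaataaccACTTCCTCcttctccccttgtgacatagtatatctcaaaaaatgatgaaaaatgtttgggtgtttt
Clec4a1 downstream, chr6:122884966-122885165: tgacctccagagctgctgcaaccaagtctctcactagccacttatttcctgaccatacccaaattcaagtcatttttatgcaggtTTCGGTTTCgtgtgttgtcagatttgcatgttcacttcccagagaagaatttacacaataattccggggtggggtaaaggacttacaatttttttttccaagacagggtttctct
Cd209a upstream, chr8:3754358-3754557: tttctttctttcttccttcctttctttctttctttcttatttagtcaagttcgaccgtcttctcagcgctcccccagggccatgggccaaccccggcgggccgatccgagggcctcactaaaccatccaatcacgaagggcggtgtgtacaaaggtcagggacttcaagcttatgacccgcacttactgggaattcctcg

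The Clec12a promoter and the upstream Clec4d stretch each held a match to AP-1 (TGANTCA) followed by one to CEBP (TTGCNNAA), the Clec4e promoter a match to CEBP, the Clec4n stretch one to PU.1 (GAGGAAGT) and the Clec4a1 stretch one to IRF (GAAANNGAA). Over all peaks of the untreated table, windows of 200 bp held AP-1 in 8.11%, CEBP in 9.82%, PU.1 in 9.45% and IRF in 8.34%. Among the 23 member peaks, AP-1 was matched in 7, CEBP in 6, PU.1 in 2 and IRF in 2. RUNX (TGTGGTT) was matched in 1 and NF-kappaB (GGANNTTCC) in 2, against 5.65% and 3.21% of all peaks. In the LPS table AP-1 was matched in 9 and CEBP in 8 of the 29 member peaks, against 13.4% and 12.2% of all peaks. PU.1 was matched in 4 of the 29 (8.72% of all peaks), IRF in 2 (7.54%), RUNX in 2 (5.82%) and NF-kappaB in 2 (3.51%). A match is a run of letters and does not show binding. No motif of this list was matched in the Cd209a stretch.

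In untreated mice, chromatin at the activating receptors Clec4e, Clec4d and Clec4n and at the inhibitory receptor Clec12a was more accessible in graft-derived than in host cells. Of 22 member peaks tested, 8 from 5 genes were called higher in CD45.1, where 3.78% of all 59170 tested peaks were. Only 1 was called higher in CD45.2, where 2.65% of all peaks were. Where the adjusted p alone was used, at 0.05, 11 were higher in CD45.1 (8.54% of all peaks) and 1 in CD45.2 (6.32%). The median log2 fold change was 1.26 over the 22 member peaks and 0.00084 over all peaks. In 12 member peaks every CD45.1 library exceeded every CD45.2 library (17.7% of all peaks), and in 2 the order was the opposite (also 17.7%).

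Clec12a encodes MICL, an inhibitory receptor that binds uric acid crystals from dead cells. Its gene spans chr6:129292709-129315321 on the plus strand, and 3 of its 5 peaks were called. At the promoter peak, chr6:129300057-129300202, CD45.1 of replicates 4, 5 and 6 had 65.3, 84.4 and 83.3 normalized tags, and CD45.2 had 0, 0.774 and 3.25. All CD45.1 libraries were high and all CD45.2 libraries near 0, with a log2 fold change of 5.61 (SE 0.702, DESeq2 adjusted p 5.65e-13). Without CD45.2 of replicate 6 it was 7.15 and with any other library left out at least 5.18. All 3 CD45.1 libraries had called a peak of their own there and no CD45.2 library had.

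The second called Clec12a peak, chr6:129301248-129301358, lay in an intron, within a SINE repeat, 1041 bp past the start. It had 23.8, 26 and 19.6 normalized tags in CD45.1 and 0.819, 0.774 and 0.406 in CD45.2 (log2 fold change 6.00, SE 1.27, DESeq2 adjusted p 5.72e-05). Since CD45.2 held only 2 tags over its 3 libraries before rounding, the ratio is better read with its counting error, as 36.6-fold with a 95% interval from 9.76 to 307.7 (exact, scaled by the size factors). Rounded to whole numbers for the fit, only replicate 5 of CD45.2 kept a tag. The fitted value was 6.77 without CD45.2 of replicate 5 and 5.42 without that of replicate 6. The groups did not overlap.

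The other called Clec12a peak, chr6:129294571-129294675, was listed as intergenic, at −5639 bp from the start, and lay within an intron of Clec12a in the GENCODE vM1 annotation, inside an endogenous retroviral repeat. CD45.1 had 14.9, 17.8 and 22.9 normalized tags and CD45.2 had 0, 0.774 and 0.812 (fitted log2 ratio 4.87, DESeq2 adjusted p 0.000271). With 2 tags in CD45.2, the ratio was 28.4-fold (95% interval 7.51 to 240.6), and without CD45.2 of replicate 5 the adjusted p was 0.0101. The intronic peak at 13235 bp, in a LINE repeat with many partial copies in the genome, differed less, with 1.32 (SE 0.407, DESeq2 adjusted p 0.0112), and the peak past the gene's end had −0.08 (SE 0.309). Within this 1 gene, the fitted log2 fold changes thus ran from −0.08 to 6.00.

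Clec4e, Clec4d and Clec4n lie side by side. Clec4e encodes Mincle, which binds the cord factor of mycobacteria and a protein released by dying cells, and its 1 peak covers the promoter and the start of the first exon (chr6:123239864-123240020, gene on the minus strand at chr6:123231807-123239889). It had 20.1, 15.5 and 35.9 normalized tags in CD45.1 of replicates 4, 5 and 6 and 1.64, 1.94 and 1.62 in CD45.2. The groups did not overlap, the CD45.1 libraries had a mean of 23.8 ± 10.7 (SD, n = 3), and the log2 fold change was 3.90 (SE 0.803, DESeq2 adjusted p 3.56e-05).

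Clec4d encodes MCL, a receptor that associates with Mincle, and both of its untreated peaks were called. The upstream peak, chr6:123202930-123203091, had 56.0, 30.1 and 81.7 normalized tags in CD45.1 and 8.19, 7.35 and 3.25 in CD45.2 (log2 fold change 3.18, SE 0.487, DESeq2 adjusted p 8.03e-09). Its intronic peak, chr6:123215973-123216118, in an old LINE repeat, had 26.1, 15.5 and 61.5 against 6.55, 3.48 and 2.43 (3.22, SE 0.634, DESeq2 adjusted p 1.36e-05). At both, as at the Clec4e promoter, CD45.1 of replicate 5 was the lowest and of replicate 6 the highest of the CD45.1 libraries, and neither group overlapped the other. Sall1 tags in the CD45.1 libraries ran the other way, highest in replicate 5 and lowest in replicate 6, and the part of host cells in the spread was not tested. With any 1 library left out, the log2 fold changes were no lower than 2.81 at the upstream Clec4d peak, 2.52 at the intronic one (without CD45.1 of replicate 6) and 3.51 at Clec4e, and all stayed called.

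Clec4n encodes Dectin-2, a receptor for fungal mannans, and none of its 3 untreated peaks was called. The upstream peak, chr6:123177649-123177808, had 49.0, 56.6 and 73.0 normalized tags in CD45.1 and 22.9, 21.3 and 20.3 in CD45.2, with no overlap. Its log2 fold change of 1.46 (SE 0.318, DESeq2 adjusted p 0.000106) was under the 4-fold limit. The promoter peak had 12.1, 16.9 and 14.2 against 8.19, 2.71 and 8.12 and did not pass the test (1.19, SE 0.607, adjusted p 0.211). A peak listed as intronic, 14567 bp past the start, with 7.0, 1.37 and 20.1 against 0, 1.94 and 0.812, reached an adjusted p of 0.0321 on few tags (3.37, SE 1.18).

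**Figure D1:**
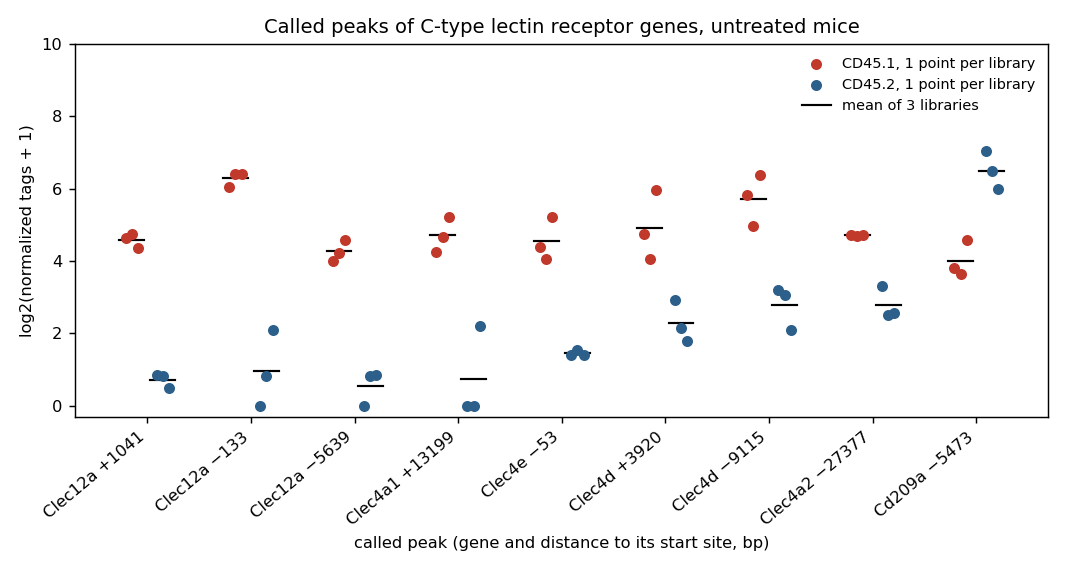
Normalized tags, as log2(normalized tags + 1), at the 9 called peaks of C-type lectin receptor genes in untreated mice, 1 point per library (3 CD45.1 and 3 CD45.2 for each peak, in the order of replicates 4, 5 and 6) with the mean as a bar. CD45.1 lies above CD45.2 at 8 peaks and below it at the Cd209a peak, and the populations overlap at none of the 9.

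The Clec4a genes encode a family of receptors around DCIR, and of those in this set Clec4a2 is the one with an inhibitory motif. Their promoters did not differ past the test at rest. The Clec4a1 promoter had 66.7, 91.3 and 79.5 normalized tags in CD45.1 and 77.0, 109.5 and 93.7 in CD45.2 (log2 fold change −0.26, SE 0.219), and the groups overlapped. At the Clec4a2 promoter the log2 fold change was −0.16 (SE 0.248), and at the Clec4a3 promoter −0.49 (SE 0.209, DESeq2 adjusted p 0.0992) with all CD45.2 libraries above all CD45.1 libraries.

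Away from the promoters, 2 peaks of this family were called. The Clec4a1 peak just past the end of the gene, chr6:122884990-122885140, had 18.2, 24.2 and 36.5 normalized tags in CD45.1 and 0, 0 and 3.65 in CD45.2 (4.39, SE 0.867, DESeq2 adjusted p 1.45e-05). All tags of CD45.2 were from replicate 6. The log2 fold change was 3.67 without CD45.2 of replicate 5 and 6.99 without that of replicate 6. Leaving out any 1 CD45.1 library gave adjusted p values of 0.0219 to 0.0429, past the limit of 0.01.

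An intergenic peak annotated to Clec4a2 at −27377 bp, chr6:123045242-123045420, had 25.2, 25.1 and 25.6 normalized tags against 9.01, 4.64 and 4.87 (2.11, SE 0.523, DESeq2 adjusted p 0.000896). Its sequence has a copy with 96.5% identity on the same chromosome, so the place of its reads is uncertain, and neither table had a peak at the copy. The adjusted p lay between 0.0113 and 0.0368 when replicate 4 or 5 was dropped from CD45.1, or replicate 5 or 6 from CD45.2. A neighbouring Clec4a2 peak at −27230 bp, with at most 4.0 tags in a library, was below the count filter.

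Clec5a, which encodes the activating receptor MDL-1, did not differ past the test. Its promoter peak had 34, 27.4 and 26.7 normalized tags in CD45.1 and 50.0, 35.99 and 30.03 in CD45.2 (−0.36, SE 0.333), and its strongest peak, 9192 bp upstream, had 64.4, 54.3 and 70.2 against 66.4, 45.3 and 41.8 (0.34, SE 0.263). At both, the groups overlapped.

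Cd209a was the exception in direction. Its only peak, chr8:3754398-3754516, lay 5473 bp upstream of the gene (chr8:3743395-3748984, minus strand) and had 13.1, 11.4 and 22.9 normalized tags in CD45.1 and 130.3, 88.6 and 62.1 in CD45.2 (log2 fold change −2.58, SE 0.348, DESeq2 adjusted p 3.28e-11). CD45.2 was high in all 3 libraries with no overlap. The authors' annotation places this peak in a repeat derived from small-subunit ribosomal RNA, whose sequence is printed above. Of 41 tested peaks in ribosomal RNA repeats, 28 were called higher in CD45.2, none higher in CD45.1, and their median log2 fold change was −2.09. In the mm9 assembly, the 200 bp stretch had no other copy with at least 90% identity over 80% of its length. Its best other match, on chromosome 17, had 73.0% identity over 79.5%. The part of reads from ribosomal DNA in the Cd209a value was not tested.

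**Figure D2:**
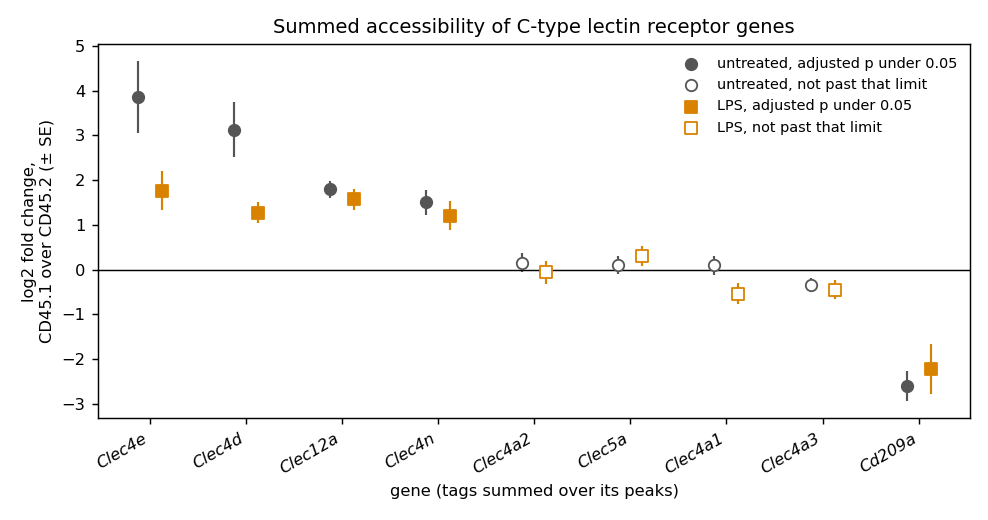
Log2 fold change of CD45.1 over CD45.2 (points, with the SE as bars) of tags summed over all peaks of each gene, for untreated (circles) and LPS mice (squares), with filled symbols past an adjusted p of 0.05. Clec4e, Clec4d, Clec12a and Clec4n lie above 0 and Cd209a below 0 in both treatments, and the other 4 genes are not past the limit.

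Summed over all peaks of a gene, 4 of the 9 genes passed an adjusted p of 0.05 toward CD45.1 (7.35% of all 16174 genes) and 1 toward CD45.2 (7.46%). The log2 fold changes were 3.86 (SE 0.801) for Clec4e, 3.13 (SE 0.607) for Clec4d, 1.79 (SE 0.196) for Clec12a, 1.503 (SE 0.279) for Clec4n and −2.60 (SE 0.343) for Cd209a. For Clec12a the strongest peak alone gave 5.56. The other 4 lay between −0.34 (Clec4a3, SE 0.154) and 0.16 (Clec4a2, SE 0.217). The median over the 9 genes was 0.16, and over all genes −0.00096. Clec4a1 and Clec4a2 each had a called peak and no difference past the test in the sum, in which their promoters held most tags.

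After LPS, peaks of Clec12a and Clec4d were again called higher in graft-derived cells, and the Cd209a peak again higher in host cells. The Clec4d call was at another peak than those called at rest. Summed by gene, Clec4e and Clec4n were also higher in graft-derived cells, with limits given below. Of 28 member peaks tested, 3 from 2 genes were called higher in CD45.1 (1.78% of 49180 peaks) and 1 higher in CD45.2 (1.19%). By the adjusted p of 0.05 alone, 6 were higher in CD45.1 (4.08%) and 2 in CD45.2 (2.38%). The median was 0.51 over the member peaks and −0.0077 over all. In 12 member peaks all CD45.1 libraries exceeded all CD45.2 libraries (14.1% of all peaks), and in 5 the reverse held (13%).

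Both Clec12a calls were at peaks also called in untreated mice. At the promoter peak, CD45.1 of LPS replicates 1, 2 and 3 had 33.96, 37.2 and 34.9 normalized tags and CD45.2 had 3.50, 1.31 and 2.97 (log2 fold change 3.73, SE 0.609, DESeq2 adjusted p 3.61e-07). At the intronic peak, CD45.1 had 36.8, 35.9 and 36.3 and CD45.2 had 0.876, 0.872 and 2.08 (4.68, SE 0.757, DESeq2 adjusted p 2.68e-07). The CD45.1 libraries were close to each other at both, and the groups stood far apart. Without CD45.2 of replicate 3 the value of the intronic peak was 5.91. The retroviral repeat peak of the untreated table had no counterpart among the LPS peaks.

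At Clec4d, a peak listed only in the LPS table, chr6:123210328-123210540, 1691 bp before the start, was called, with 14.6, 16.3 and 28.3 normalized tags against 3.50, 1.31 and 2.97 (2.88, SE 0.695, DESeq2 adjusted p 0.00154). Its adjusted p was 0.0349 to 0.0630 when replicate 3 was dropped from CD45.1, or replicate 2 or 3 from CD45.2. Another LPS peak, in an exon of Clec4d, had 10.5, 13.05 and 10.9 against 1.75, 1.74 and 1.19 (2.95, SE 0.884, adjusted p 0.0181). The upstream and intronic Clec4d peaks that were called at rest had log2 fold changes of 0.78 (SE 0.306, DESeq2 adjusted p 0.120) and 1.09 (SE 0.406, adjusted p 0.0889).

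The Clec4e promoter had 24.7, 40.4 and 45.3 normalized tags in CD45.1 and 9.63, 7.41 and 14.2 in CD45.2 after LPS. The groups still did not overlap, and the log2 fold change was 1.75 (SE 0.442, DESeq2 adjusted p 0.00286), below 4-fold. At Clec4n, the peak at 14581 bp, which reached an annotated exon, had 12.1, 6.52 and 15.6 against 0, 0.872 and 1.78 (3.35, SE 0.994, adjusted p 0.0165), and the upstream peak 1.24 (SE 0.469, adjusted p 0.0956). The Clec4n promoter had a log2 fold change of 0.26 (SE 0.596), and the groups overlapped there. The Clec4a1 promoter was higher in CD45.2, with 50.5, 46.3 and 46.7 against 99.0, 89.4 and 67.7 (−0.79, SE 0.258, DESeq2 adjusted p 0.0364). The Clec4a3 promoter leaned the same way without passing (−0.79, SE 0.295, adjusted p 0.0889). So did the Clec4a2 promoter peaks at −23 bp (−0.57, SE 0.335) and, on few tags, at 14 bp (−1.30, SE 0.766). At each of these Clec4a promoter peaks all CD45.2 libraries lay above all CD45.1 libraries. None of the 5 tested Clec5a peaks passed the test. Clec5a had −0.20 (SE 0.448) at its promoter and 0.33 (SE 0.321) at the peak 9218 bp upstream.

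The Cd209a peak had 7.68, 5.87 and 2.36 normalized tags in CD45.1 and 19.3, 31.0 and 21.7 in CD45.2 after LPS (−2.23, SE 0.574, DESeq2 adjusted p 0.00354), and the 3 CD45.2 libraries alone had called a peak there. Without CD45.1 of replicate 1 the value was −2.84. Leaving out any 1 of the 6 libraries moved the adjusted p to between 0.0104 and 0.143, and scaling by total tags gave 0.0113, all past the limit of 0.01. Of 27 tested peaks in ribosomal RNA repeats, 17 were called higher in CD45.2 and none higher in CD45.1 (median −2.40).

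**Figure D3:**
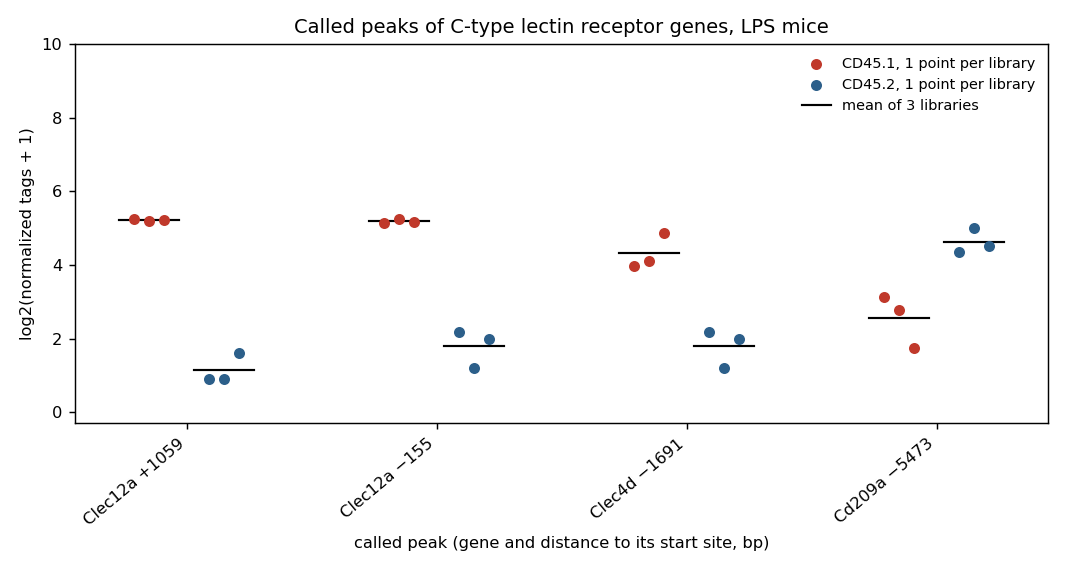
Normalized tags, as log2(normalized tags + 1), at the 4 called peaks of C-type lectin receptor genes after LPS, 1 point per library (replicates 1, 2 and 3 from left to right in each population) with the mean as a bar. Clec12a and Clec4d are higher in all 3 CD45.1 libraries, and the Cd209a peak in all 3 CD45.2 libraries.

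By gene, 4 of 9 were higher in CD45.1 after LPS (4.08% of all 15722 genes) and 1 in CD45.2 (2.98%). The log2 fold changes were 1.77 (SE 0.434) for Clec4e, 1.57 (SE 0.240) for Clec12a, 1.27 (SE 0.232) for Clec4d, 1.21 (SE 0.331) for Clec4n and −2.22 (SE 0.564) for Cd209a. Clec4a1 (−0.54, SE 0.231), Clec4a3 (−0.45, SE 0.213), Clec4a2 (−0.06, SE 0.254) and Clec5a (0.30, SE 0.223) did not pass. With each gene's strongest peak in place of the sum Clec12a (0.58), Clec4d (0.80) and Clec4n (1.28) did not pass. Leaving out CD45.2 of replicate 2 gave adjusted p values of 0.0646 for Clec4e, 0.0671 for Clec4n and 0.120 for Cd209a. Clec4n also missed the limit without CD45.1 of replicate 1 (0.0530) or replicate 2 (0.0625) and without CD45.2 of replicate 3 (0.172), and Clec4e (0.0556) and Cd209a (0.0586) without CD45.1 of replicate 3. The median over the 9 genes was 0.30, and over all genes −0.012.

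**Figure D4:**
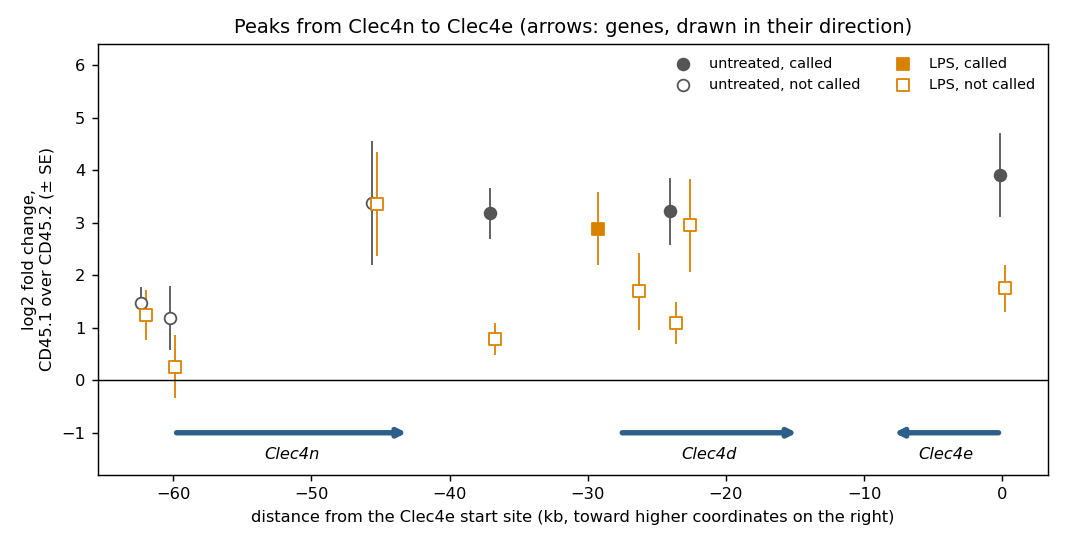
Log2 fold change of CD45.1 over CD45.2 (± SE) at each tested peak annotated to Clec4n, Clec4d or Clec4e, against the distance of its centre from the Clec4e start in kb, for untreated (circles) and LPS mice (squares), with filled symbols for called peaks and arrows for the genes. All values lie above 0, and at the upstream Clec4d peak the value is 3.18 at rest and 0.78 after LPS.

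To ask whether the populations responded differently to LPS, peaks of both tables that overlapped reciprocally by at least 50% were matched, which paired 21 member peaks. The tables were made separately and their mice are not shared, so treatment and table cannot be told apart within a population, while a constant factor between the tables cancels in the interaction. In this fit, 2 of the 21 member peaks had an adjusted p under 0.05 for a larger response in CD45.2 (0.224% of 39235 matched peaks) and none for a larger response in CD45.1 (0.0178%). At an unadjusted p under 0.05 the counts were 5 (3.69% of matched peaks) and 0 (1.64%), and edgeR at an adjusted p of 0.05 gave 2 (0.313%) and 0 (0.0408%).

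At the upstream Clec4d peak, CD45.2 went from 5.44, 5.27 and 2.20 normalized tags (on the scale of the 12 libraries) in untreated mice to 45.4, 40.4 and 49.0 after LPS, while CD45.1 went from 37.3, 20.2 and 53.7 to 78.5, 93.3 and 64.4. LPS libraries were above untreated ones in both populations without overlap. The log2 difference of the responses was −2.36 (SE 0.535, DESeq2 adjusted p 0.00700). With scaling by total tags the adjusted p was 0.0658, and without CD45.1 or CD45.2 of untreated replicate 6 it was 0.0650 and 0.101.

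The second was the Clec4a1 peak past the gene's end, where CD45.2 went from 0, 0 and 2.20 to 15.1, 13.9 and 24.5 normalized tags and CD45.1 from 12.4, 15.9 and 24.4 to 25.8, 19.4 and 30.8. The CD45.2 libraries did not overlap between treatments and the CD45.1 libraries did. The log2 difference of the responses was −3.89 (SE 0.925, DESeq2 adjusted p 0.0152) and rests on a starting value near 0. Without CD45.2 of LPS replicate 3 the adjusted p was 0.144. DESeq2 gave no adjusted p with scaling by total tags, nor when untreated replicate 6 or LPS replicate 3 was dropped from CD45.1, or untreated replicate 5 or 6 or LPS replicate 1 from CD45.2.

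The Clec4e promoter and the intronic Clec4d peak had differences of like size that did not pass, −2.11 (SE 0.846, DESeq2 adjusted p 0.660) and −2.09 (SE 0.715, adjusted p 0.381). For the Clec12a promoter and the intronic peak at 1041 bp the values were −1.84 (SE 0.888, adjusted p 0.861) and −1.31 (SE 1.42, adjusted p 0.991), both with CD45.2 near 0 in either treatment. The Cd209a peak had 0.38 (SE 0.611, adjusted p 0.994).

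**Figure D5:**
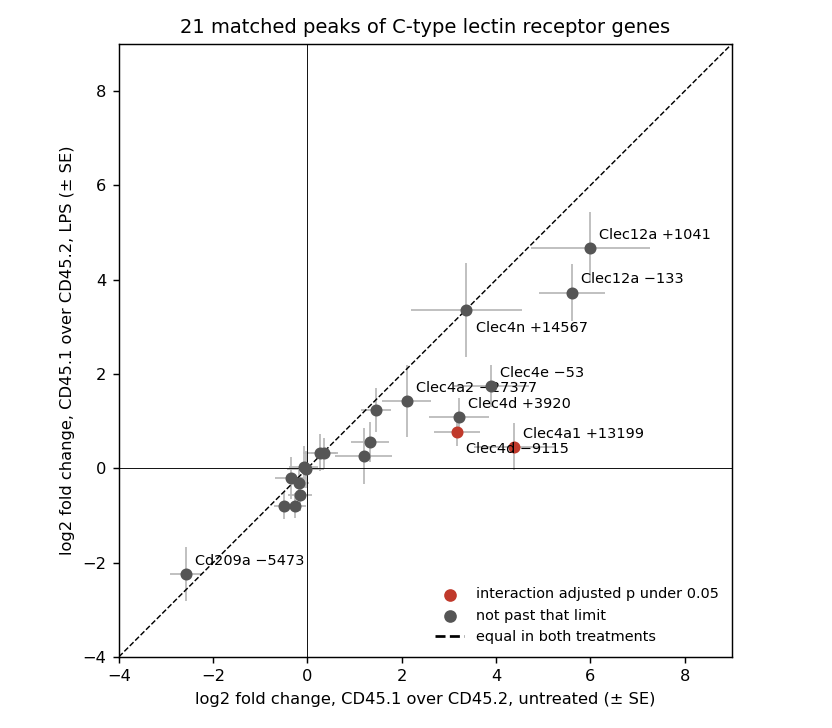
Log2 fold change of CD45.1 over CD45.2 after LPS against that at rest (± SE) for the 21 matched member peaks, with the dashed line where both are equal. The upstream Clec4d peak and the Clec4a1 peak past the gene's end (red, interaction adjusted p under 0.05) lie furthest below the line, and the Clec12a promoter, the Clec12a peak at 1041 bp and the Clec4n peak at 14567 bp have values of 3.35 or more in both treatments.

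Within CD45.2, 7 of the 21 peaks were higher after LPS at an adjusted p under 0.05 and over 2-fold (7.68% of matched peaks) and none was lower (3.70%). They were the Clec4a1 peak past the gene's end with a log2 fold change of LPS over untreated of 4.44 (SE 0.828), the Clec4e promoter with 3.88 (SE 0.758), the upstream Clec4d peak with 3.45 (SE 0.443), the intronic Clec4d peak with 3.31 (SE 0.592), the Clec12a intronic peak at 13235 bp with 1.67 (SE 0.394), the Clec4n promoter with 1.61 (SE 0.555) and a Clec5a peak 9517 bp upstream with 1.21 (SE 0.345). These 7 peaks belong to 6 genes. The Clec4a1 value was 3.71 without CD45.2 of untreated replicate 5 and 7.06 without that of replicate 6. After an offset for peak width, the Clec4n promoter (1.12, DESeq2 adjusted p 0.138) and the Clec12a peak (0.90, adjusted p 0.0933) did not pass. The Clec5a peak did not pass without CD45.2 of LPS replicate 1 (0.99, adjusted p 0.0613), and the Clec4n promoter without CD45.2 of untreated replicate 5 or LPS replicate 2 or 3 (adjusted p 0.212, 0.137 and 0.0763). With scaling by total tags, the Clec5a peak (DESeq2 adjusted p 0.0687) and the Clec4n promoter (0.106) also did not pass.

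Within CD45.1, 5 were higher (6.77%) and none lower (4.98%). The Clec12a intronic peak at 1041 bp had 1.80 (SE 0.349), the Clec4e promoter 1.77 (SE 0.377), the Clec5a peak at −9517 bp 1.32 (SE 0.329), the intronic Clec4d peak 1.22 (SE 0.401) and the upstream Clec4d peak 1.09 (SE 0.299). The Clec12a promoter in CD45.1 had 43.6, 56.3 and 54.5 normalized tags untreated and 49.2, 54.4 and 51.8 after LPS, with overlap (0.01, SE 0.284). With the width offset, the upstream Clec4d value was 0.80, under 2-fold, as it was without CD45.1 of untreated replicate 5 (0.78) or LPS replicate 2 (0.96). The intronic Clec4d peak did not pass without CD45.1 of untreated replicate 4 or 5 or LPS replicate 2 or 3 (adjusted p 0.0900 to 0.130), and its value was 1.90 without CD45.1 of untreated replicate 6. Nor did this peak pass with scaling by total tags (DESeq2 adjusted p 0.0728). The Clec12a peak at 1041 bp had 1.13 with the width offset.

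Other C-type lectin receptor genes and the signalling genes downstream were counted in the same fits. Of 49 further receptor genes, 41 had peaks in untreated mice, of which 9 were higher in CD45.1 (of all genes, 7.35%) and 2 in CD45.2 (7.46%), with a median log2 fold change of 0.10. Those higher in CD45.1 included Clec7a (Dectin-1, a receptor for fungal glucans), with 135.0 ± 6.17 against 75.4 ± 12.4 summed normalized tags (SD, n = 3, 0.83, DESeq2 adjusted p 0.000440), and Mrc1 (the mannose receptor), with 157.4 ± 12.2 against 84.5 ± 4.65 (0.89, DESeq2 adjusted p 2.22e-05). Clec10a, a receptor for galactose residues, had 39.5 ± 16.6 against 12.7 ± 3.02 (1.68, DESeq2 adjusted p 0.00111). The rest of the 9 were Klrk1 (5.37, with CD45.2 near 0), Clec14a (1.85), Klri2 (1.78), Cd93 (1.38), Thbd (1.21) and Clec4b2 (1.15). The 2 higher in CD45.2 were Klrb1a (−1.12) and Klrb1c (−0.34). After LPS, 5 of 36 tested were higher in CD45.1 (of all genes, 4.08%) and none in CD45.2 (2.98%), with a median of −0.09. The 5 were Klrk1 (4.18, with CD45.2 near 0), Clec14a (1.76), Cd93 (1.41), Thbd (1.25) and Mrc1 (1.10, SE 0.230). Clec7a was not among them. Mrc1 is also a marker of border-associated macrophages, of which 2 of 6 with peaks were higher in CD45.1 in each treatment, with sums of 829 to 905 against 614 to 711 normalized tags at rest, and the part of such cells was not tested.

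All 26 signalling genes had peaks. In untreated mice Vav3, an exchange factor downstream of Syk, was higher in CD45.1, with 1.32 (SE 0.163, DESeq2 adjusted p 5.77e-14), where 7.35% of all genes were. After LPS it was the 1 signalling gene of 26 higher in CD45.1, with 0.81 (SE 0.197, DESeq2 adjusted p 0.00122), near the share of 4.08% over all genes. No signalling gene was higher in CD45.2 (7.46% and 2.98% of all genes), and the medians were 0.04 and −0.01.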

How the data were processed

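ATAC-seq libraries of CD45.1 and CD45.2 brain macrophages were used, 12 in all. The submitters' processing notes name bcl2fastq 2.17.1.14, Bowtie2, Picard 1.108, HOMER and build mm9. The authors called peaks per library, each with a HOMER score, merged the 6 lists of a treatment and counted tags. The deposited values are unnormalized estimated counts in steps of a partial tag, rounded here to whole numbers. Peaks with more than 10 tags in at least 1 library (59170 untreated, 49180 LPS) were tested with DESeq2 1.42.0, following the study, 3 against 3 libraries, with Benjamini-Hochberg adjustment over all peaks, or over all genes for tags summed by gene. Matched peaks were fitted over all 12 libraries with population, treatment and their interaction. edgeR 4.0.16, other scalings, filters and fold limits, matching by any overlap, peak width, the replicate number as a block and leaving out each library were alternatives. The scripts were tested on simulated data. Named were all member genes, every called member peak, the strongest peak of a member with none, and the peak nearest each start within 1 kb. Further peaks named were chosen after their values were seen. Members and gene lists were chosen with earlier results of these data known. The labels do not say that the libraries of a group come from separate animals, so p-values measure the spread between these libraries, which may be technical. Intervals cover counting error only. One result for a signalling gene is not reported here.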

Additional observations from a re-analysis of the deposited data

Results flagged for a closer look

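The response to LPS differed between the populations at 2 member peaks, by the interaction of population and treatment over 12 libraries (DESeq2 adjusted p under 0.05). At the Clec4a1 peak 13199 bp past the start the log2 difference of the responses was −3.89, with the larger response in CD45.2. At the upstream Clec4d peak it was −2.36, in the same direction. The Clec4a1 difference did not pass without CD45.2 of LPS replicate 3 (adjusted p 0.144), and the Clec4d difference did not with scaling by total tags (0.0658), without CD45.1 or CD45.2 of untreated replicate 6 (0.0650 and 0.101), or with the replicate number as a block (0.124). The responses were 4.44 in CD45.2 and 0.55 in CD45.1 at the Clec4a1 peak, and 3.45 and 1.09 at the Clec4d peak. LPS and untreated mice are different animals in separately made tables.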

How the results depend on the processing

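Of the log2 values, 383 kept their direction and side of the limit under the alternatives other than leaving out a library, 16 lost a call and 4 changed sign. With single libraries left out, 423 were unchanged in this sense, 38 lost a call, 1 gained one and 5 changed sign. A filter at a mean of 20 tags left 2 member peaks higher in CD45.1 in untreated mice and, after LPS, 0 higher in either population and 0 genes higher in CD45.2. It also left 1 interaction and 3 (CD45.1) and 4 (CD45.2) peaks higher after LPS, since fewer peaks were tested. For LPS peaks, edgeR called 5 higher in CD45.1, and without a fold limit 6 were higher in CD45.1 and 2 in CD45.2. Libraries of both populations share replicate numbers, but neither the labels nor the study tie a number to a single mouse. Same-numbered libraries had correlations of deviations from the group means of 0.0762 to 0.0897 (untreated) and −0.0640 to 0.149 (LPS). Each untreated library correlated best with its own number, and not each LPS library did. With the replicate block, 7 untreated and 2 LPS peaks were called higher in CD45.1, 0 LPS peaks higher in CD45.2, and 1 interaction remained. At the limits of the calls, this ended those of the untreated Clec4a2 peak at −27377 bp (DESeq2 adjusted p 0.0135), the LPS Clec4d peak at −1691 bp (0.0156), the LPS Cd209a peak (0.0244), the LPS Clec4n gene (0.0995) and the Clec4d interaction (0.124). Among peaks described only by an adjusted p under 0.05, the untreated Clec12a peak at 13235 bp (0.0792) and Clec4n peak at 14567 bp (0.136), and the LPS Clec4n peak at 14581 bp (0.0701), Clec4d exon peak (0.0879) and Clec4a1 promoter (0.199) no longer passed. The calls of the other named peaks and genes were not changed by the block. Scaling by total tags gave 0 LPS peaks higher in CD45.2 and 0 interactions. Using the strongest peak of each gene left 1 gene higher in CD45.1 after LPS, and the width offset gave 1 peak lower after LPS in CD45.2. The cause of these changes was not tested. With single libraries left out, counts ran from 6 to 8 (untreated peaks higher in CD45.1), 2 to 4 (LPS peaks higher in CD45.1), 0 to 0 (LPS peaks higher in CD45.2), 2 to 4 and 0 to 1 (LPS genes higher in CD45.1 and CD45.2), 0 to 2 (interactions), 3 to 6 (higher after LPS in CD45.1) and 6 to 8 and 0 to 1 (higher and lower after LPS in CD45.2). Signs changed only at values not past a limit. The untreated Clec4a1 gene value was −0.30 by strongest peak and −0.028 to 0.23 over single libraries left out, and Clec4a2 was −0.20 within 20 kb and −0.20 by strongest peak. The LPS Clec4a2 gene value was 0.071 by total tags and −0.16 to 0.10 over single libraries, the untreated Clec5a gene −0.016 to 0.25 and the untreated Clec4a2 promoter −0.35 to 0.070. Low depth after LPS limits peaks with few tags.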
